A study of Mus musculus with 18 samples.

Results

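The 6 genes described here encode cellular proteins that have been reported as autoantigens in Sjögren's syndrome (SS). They are Trim21, Trove2, Ssb, Sptan1, Sptbn1 and Cenpb. They were chosen by name from this list of autoantigens and not by a rule on their values, though earlier results of these data were known. Each was found among the 54232 genes counted in the lacrimal gland (LG). All 6 passed the filter on low counts in every comparison, with between 174 counts (Trim21) and 24711 counts (Sptbn1) per mouse.

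The proteins work in different parts of the cell. TRIM21, also called Ro52, is a ubiquitin ligase that binds the constant part of antibodies in the cytosol, and its gene is known to respond to interferon. Ro60, the product of Trove2, is a ring-shaped protein that holds misfolded small RNAs and the noncoding Y RNAs, and La, the product of Ssb, binds and protects the uridine-rich end of newly made RNA polymerase III transcripts. Antibodies to Ro and La are the serological hallmark of SS. Sptan1 encodes nonerythroid alpha spectrin (alpha-fodrin) and Sptbn1 encodes its partner, beta spectrin (beta-fodrin). The pair forms the mesh under the plasma membrane of epithelial cells, and cleaved alpha-fodrin has been described as an autoantigen in this disease. CENP-B binds a short DNA motif in the satellite repeats of centromeres and is the main target of anticentromere antibodies, which are seen in a subset of patients.

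RNA of the LG was sequenced in bulk from 18 male mice after depletion of ribosomal RNA, with 1 gland of 1 mouse per library and 3 mice in each of 6 groups. The groups were BALB/c (BALB/cJ) and NOD.H-2b (NOD.B10Sn-H2b/J) mice aged 2, 4 and 6 months (2M, 4M and 6M) with no treatment named in the labels. NOD.H-2b is a diabetes-resistant relative of the NOD strain that carries the H2b haplotype and develops inflammation of the LG, and BALB/c served as the control. BALB/c is a separate inbred strain and not the congenic partner of NOD.H-2b, so the disease and the other genetic differences between the strains cannot be told apart in these data. Males only were profiled.

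The libraries held between 49480781 and 103936830 counts, and 1 BALB/c library at 6M was the deepest. All 9 acinar marker genes of the LG were detected in every group. At 2M their summed level was 55199 to 65840 CPM in the BALB/c mice and 30614 to 35625 CPM in the NOD.H-2b mice. At 4M it was 74015 to 110412 CPM in the BALB/c mice and 54813 to 66622 CPM in the NOD.H-2b mice. At 6M it was 101960 to 104559 CPM in the BALB/c mice and 20124 to 40849 CPM in the NOD.H-2b mice. The summed level of 10 B cell markers lay between 0.141 and 2.91 CPM (the read count scaled to library size) in BALB/c, between 1.81 and 34.5 CPM in the NOD.H-2b mice of 2M and between 176 and 528 CPM in the NOD.H-2b mice of 4M and 6M. The summed level of 10 macrophage markers lay between 59.8 and 162 CPM in the BALB/c mice and between 234 and 478 CPM in the NOD.H-2b mice. The summed level of 15 epithelial markers lay between 1701 and 1873 CPM in BALB/c, between 1753 and 1994 CPM in the NOD.H-2b mice of 2M, between 1276 and 1613 CPM at 4M and between 1115 and 1361 CPM at 6M. In such bulk samples, fewer cells of a type and less RNA per cell cannot be told apart. The labels give no batch of dissection or sequencing.

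Trim21 was the only one of the 6 genes whose level differed at least 2-fold between the strains. Cenpb was the only one for which a change of the strain difference with age was called. Among the 6 genes, 2 were called between the strains at 2M (Trim21 and Sptan1, both higher in the NOD.H-2b mice), 2 at 4M and 2 at 6M (Trim21 higher and Cenpb lower at both ages). A call here means a Benjamini-Hochberg adjusted p (FDR) under 0.05 over all genes tested, by the quasi-likelihood test of edgeR. The strains differ widely, and such calls were made for 39.8% of all genes tested at 2M, 42.6% at 4M and 54.4% at 6M. Calls that also reached a 2-fold change (differentially expressed genes, DEGs) were made for 15.8% of genes at 2M, 20.3% at 4M and 24.8% at 6M, against 1 of the 6 genes at each age. Between ages, none of the 6 was called in BALB/c, where 11.1% of all genes were called from 2M to 4M and 5.61% from 2M to 6M. With the strain difference averaged over the 3 ages, 3 of the 6 genes were called (Trim21 higher, Sptbn1 and Cenpb lower), against 65.5% of all genes, and 1 was a DEG, against 22.8%. With shares of this size over all genes, these counts are no result about the 6 genes as a group.

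**Figure D1:**
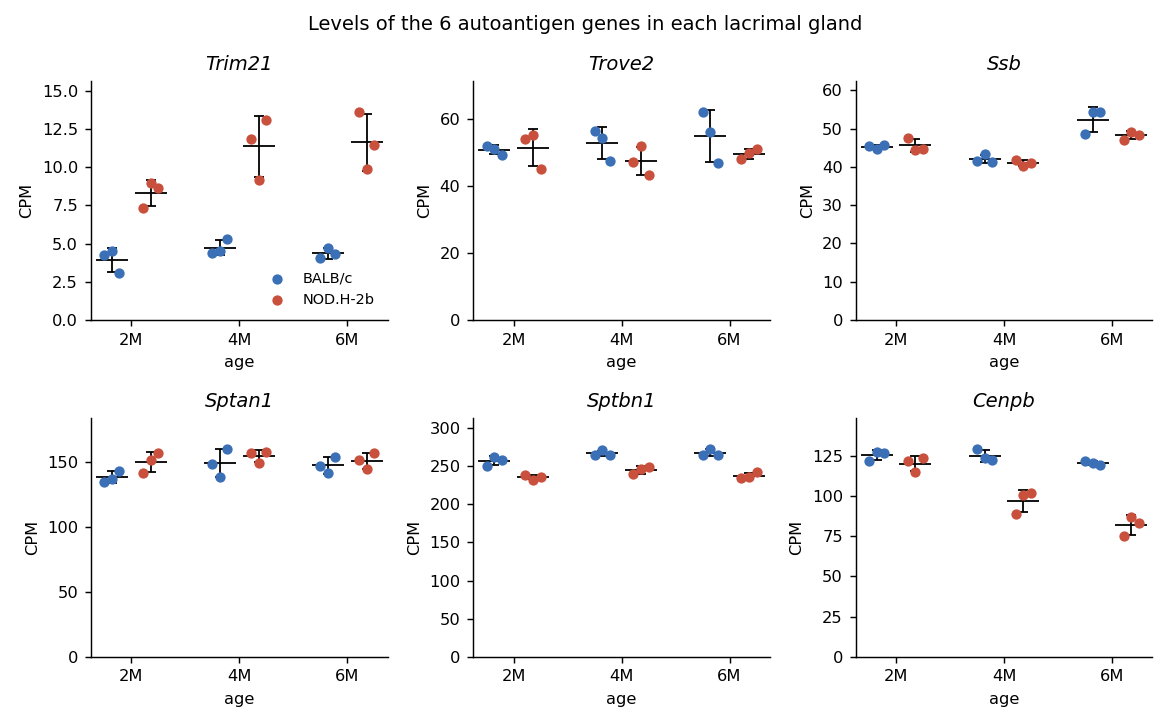
Level of each of the 6 genes (CPM, linear axis from 0) in each LG by age (2M, 4M, 6M) in BALB/c (blue) and NOD.H-2b (red). Each dot is 1 mouse, and bars give the mean and SD of 3 mice. Trim21 is higher in every NOD.H-2b LG than in every BALB/c LG, Cenpb falls in NOD.H-2b to 81.9 CPM at 6M, and Trove2 and Ssb overlap between the strains at every age.

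Trim21 (ENSMUSG00000030966) lies on the minus strand of chromosome 7 at 102557921 to 102565486 (GRCm38, GENCODE M21), has 5 annotated transcripts and overlaps no other gene. At 2M its level was 3.07, 4.26 and 4.54 CPM in the 3 BALB/c LGs and 7.31, 8.66 and 8.95 CPM in the 3 NOD.H-2b LGs. At 4M it was 4.39, 4.51 and 5.31 CPM in the BALB/c mice and 9.16, 11.9 and 13.1 CPM in the NOD.H-2b mice. At 6M it was 4.05, 4.33 and 4.73 CPM in the BALB/c mice and 9.87, 11.4 and 13.6 CPM in the NOD.H-2b mice. The lowest of all 9 NOD.H-2b mice was thus above the highest of all 9 BALB/c mice. Groups that do not overlap were found for 53.4% of all genes at 2M, 55.4% at 4M and 64.6% at 6M.

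The Trim21 strain difference was 1.11 on the log2 scale at 2M (SE 0.151, FDR 0.000168), 1.27 at 4M (SE 0.154, FDR 0.000159) and 1.45 at 6M (SE 0.138, FDR 1.54e-05), so Trim21 was a DEG at each age. With single mice left out, the lowest difference at 2M was 0.95, which is under 2-fold though still called. Averaged over the ages it was 1.25 (95% interval 1.06 to 1.44), which is 2.38-fold. The larger value at 6M than at 2M was not called, with a change in the strain difference of 0.35 (SE 0.225, FDR 0.309), a comparison in which 16.1% of all genes were called.

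Within NOD.H-2b, the mean Trim21 level rose from 8.31 ± 0.875 CPM at 2M to 11.6 ± 1.87 CPM at 6M (SD, n = 3), a log2 change of 0.47 (SE 0.134, FDR 0.0221). In that comparison 40% of all genes were called, and 2 of the 6 autoantigen genes (Trim21 higher, Cenpb lower). The Trim21 call was lost without any of 4 single mice: the FDR was 0.0689 and 0.0504 without either of 2 mice of 2M and 0.0662 and 0.0571 without either of 2 mice of 6M. In BALB/c, the log2 difference of Trim21 from 2M to 6M was 0.13 (SE 0.160, FDR 0.696), and the 2M and 6M mice overlapped. From 2M to 4M the NOD.H-2b change was 0.45 and missed the threshold (FDR 0.0702), while in the fit of all 18 mice it was called (FDR 0.0425).

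The start of the Trim21 transcript holds letters that match the core of an element known to bind interferon-activated factors. The stretch is shown because Trim21 was the only one of the 6 genes with such a match. The RefSeq promoter window (GRCm38.p6, 250 bases before to 50 bases after the start) was searched on both strands for GAAA, any 2 bases and GAAA, the core of the interferon-stimulated response element (ISRE). Both matches in Trim21 are on the gene's own strand and share 4 bases. They lie at positions 14 to 23 and 20 to 29 counted from the transcription start, in the 5′ untranslated part of exon 1 of an annotated Trim21 transcript. The stretch below is chr7:102565447-102565476, minus strand, written 5′ to 3′, with the matched bases in capitals.
Trim21: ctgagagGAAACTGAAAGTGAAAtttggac

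The same letters were found in 3.43% of all 32817 promoter windows and in 3.98% of the 26994 genes with a window. They were found in 11 of the 22 interferon-stimulated genes that had a window, out of 28 listed, and in 7 of 17 other TRIM genes. None of the windows of Trove2 (listed as Ro60), Ssb, Sptan1, Sptbn1 (2 windows) or Cenpb held a match, and none of the 6 genes held TTC, any 3 bases and GAA, the core of the gamma-activated site, which 8.29% of windows held. A match is a description of these letters and not a measured binding site. The Trim21 window also had few CpG dinucleotides, 3 in 300 bases, against 18 to 45 in the windows of Trove2, Ssb, Sptan1 and Cenpb, 21 and 2 in those of Sptbn1 and a median of 7 over all windows.

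Interferon-stimulated genes were higher in NOD.H-2b than in BALB/c as a group, and the Trim21 difference was among the smaller ones. Of 28 listed genes, 28 were called higher at 2M, 27 at 4M and 27 at 6M, and none was called lower. The median log2 difference of the list, averaged over the ages, was 2.60, beside -0.02 over all genes tested. The DNA and RNA sensor Zbp1 had the largest difference of the list (4.61, SE 0.230). Trim21 ranked below 26 of the 28 at 2M, 24 at 4M and 22 at 6M. The 28 genes summed to between 137 and 226 CPM in the BALB/c mice and to between 469 and 836 CPM in the NOD.H-2b mice, so these sums did not overlap between the strains. Per 1000 CPM of that sum, Trim21 stood at 18.7 to 27.2 CPM in the BALB/c mice and at 14.8 to 18.1 CPM in the NOD.H-2b mice. Per 1000 CPM of summed macrophage markers, it stood at 32.8 to 53.7 CPM in BALB/c and 25.3 to 35.0 CPM in NOD.H-2b. Set against the summed epithelial markers, the values were 1.80 to 3.00 CPM in BALB/c and 3.67 to 12.2 CPM in NOD.H-2b. For the T cell markers they were 962 to 7250 CPM in BALB/c and 106 to 993 CPM in NOD.H-2b. For the B cell markers they were 1644 to 21750 CPM and 25.7 to 4045 CPM. In BALB/c both of these sums were near the floor (0.423 to 5.52 CPM for T cells, 0.141 to 2.91 CPM for B cells). These ratios were given no test. The parts of interferon and of cell composition in the Trim21 result were not tested.

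Other TRIM genes, which encode ligases of the same family, moved both ways. Of 20 tested, 11 were called higher and 5 lower in NOD.H-2b averaged over the ages, with a median of 0.31. Trim68, which lies on the same chromosome as Trim21, was lower by a log2 difference of -1.15 (SE 0.0542), with means of 28.1 CPM in the BALB/c mice and 10.7 CPM in the NOD.H-2b mice of 6M. Trim30d showed the largest difference among the TRIM genes with a mean log2 CPM of at least 1 (6.00, SE 0.267), and reads of the closely related Trim30 copies could be shared in counting. Among 15 genes for partners and substrates of TRIM21, 5 were called higher and 3 lower. The transcription factor gene Irf5, whose product TRIM21 is known to ubiquitinate, was higher by 2.67 (SE 0.134). Vcp, which encodes the unfolding ATPase that acts with TRIM21 on antibody-bound virus, was lower by a log2 difference of -1.31 (SE 0.0536).

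**Figure D2:**
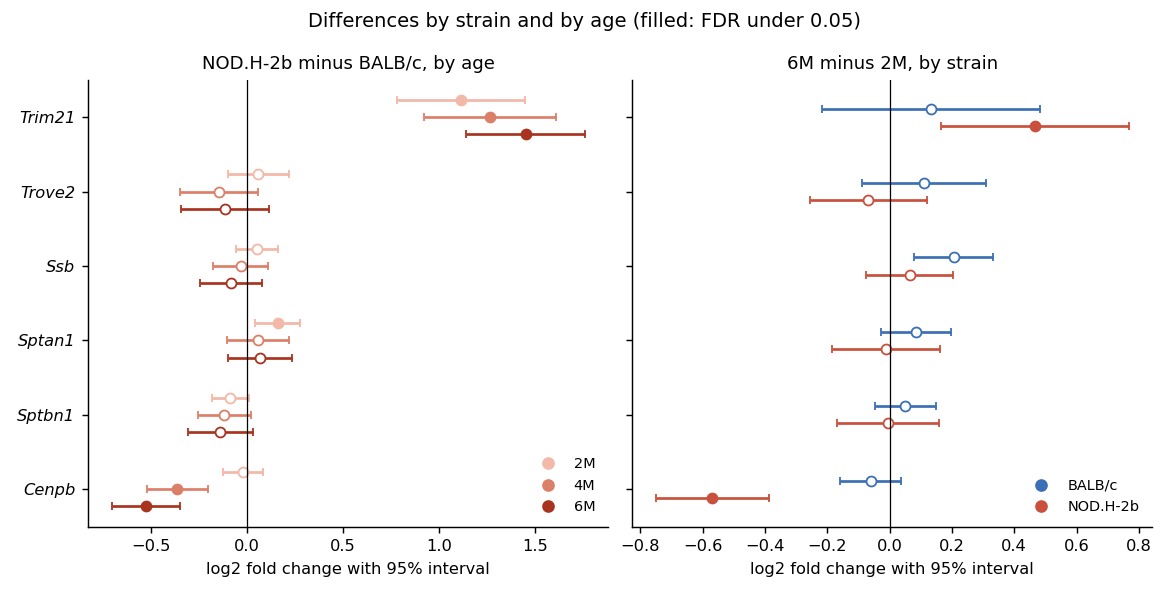
Log2 fold change of each gene between the strains at each age (left) and from 2M to 6M within each strain (right), from the fits of the 6 mice compared, with 95% intervals. Filled circles mark an FDR under 0.05. Trim21 lies at 1.11 to 1.45 on the left, Cenpb moves from -0.02 at 2M to -0.53 at 6M, and on the right only the NOD.H-2b values of Trim21 (0.47) and Cenpb (-0.57) are filled.

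Cenpb (ENSMUSG00000068267) is a gene of 1 exon on the minus strand of chromosome 2 at 131175182 to 131180067. Its exon shares 20 bases with Spef1 on the same strand, which had 131 to 415 counts per mouse beside 4763 to 11352 for Cenpb. At 2M its level was 122, 127 and 128 CPM in the BALB/c mice and 115, 122 and 124 CPM in the NOD.H-2b mice, and the strains overlapped. At 4M it was 122, 124 and 129 CPM in the BALB/c mice and 89.1, 100.4 and 102 CPM in the NOD.H-2b mice. At 6M it was 119.7, 121 and 122 CPM in the BALB/c mice and 75.0, 83.5 and 87.3 CPM in the NOD.H-2b mice. All NOD.H-2b mice of 4M and 6M were below every BALB/c mouse and below every NOD.H-2b mouse of 2M. Within NOD.H-2b, groups that do not overlap were found for 37.9% of all genes between 2M and 4M and for 54.5% between 2M and 6M.

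The Cenpb strain difference was -0.02 on the log2 scale at 2M (SE 0.0473, FDR 0.764), -0.36 at 4M (SE 0.0703, FDR 0.00241) and -0.53 at 6M (SE 0.0797, FDR 0.000356). It changed by -0.50 from 2M to 6M (95% interval -0.68 to -0.31, FDR 0.00241), and Cenpb was the only one of the 6 genes called in this test. Calls in the lower direction were made there for 9.09% of all genes. The change from 2M to 4M was -0.30 (FDR 0.0889, with 1.67% of all genes called) and that from 4M to 6M was -0.19 (FDR 0.361), so neither step was called alone. In the test of 4M to 6M, edgeR called 0 of the 19117 genes (0%), 2533 had an unadjusted p under 0.05 and DESeq2 called 34 higher and 38 lower.

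Within NOD.H-2b, Cenpb fell from 120.1 ± 4.68 CPM at 2M to 97.1 ± 6.93 CPM at 4M and 81.9 ± 6.29 CPM at 6M (SD, n = 3). The log2 change was -0.31 from 2M to 4M (FDR 0.0218), where 15.8% of all genes were called, and -0.57 from 2M to 6M (SE 0.0804, FDR 0.0014). The first of these lost its call without either of 2 mice of 2M (FDR 0.0688 and 0.0932). From 4M to 6M the change was -0.23 (FDR 0.356), where 1 gene of 18026 was called, while in the fit of all 18 mice Cenpb was called there (FDR 0.0383). In BALB/c the 2M to 6M change was -0.06 (SE 0.0451, FDR 0.483), with means of 125 ± 2.98 and 121 ± 1.09 CPM.

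Epithelial markers fell in the same NOD.H-2b mice. Of 15 listed, 13 were called lower from 2M to 6M in NOD.H-2b (median -0.59) and 11 in the strain by age test. At 2M, 8 of them were called higher and 2 lower in NOD.H-2b, while the summed acinar markers given above were lower there at 2M without overlap. Within NOD.H-2b those acinar sums were higher at 4M (54813 to 66622 CPM) than at 2M (30614 to 35625 CPM). Gene by gene, 1 of the 9 acinar markers was called higher in that step, 1 lower and 7 were not called (median -0.09). Between the strains at 2M, 4 of the 9 were called lower and 5 were not called. Such a sum weighs abundant genes most, with a mean log2 CPM of 14.5 for Obp1a beside 6.98 for Aqp5. Per 1000 CPM of the summed epithelial markers, Cenpb had a mean of 73.5 ± 1.81 CPM in the BALB/c mice and 64.2 ± 2.80 CPM in the NOD.H-2b mice of 2M (SD, n = 3). The means were 68.9 ± 2.78 and 65.8 ± 3.61 CPM at 4M and 68.5 ± 0.657 and 66.2 ± 1.77 CPM at 6M. On this scale the strains overlapped at 4M only, and the NOD.H-2b means of the 3 ages lay between 64.2 and 66.2 CPM. These ratios were given no test. The part of cell composition in the Cenpb result was not tested.

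**Figure D3:**
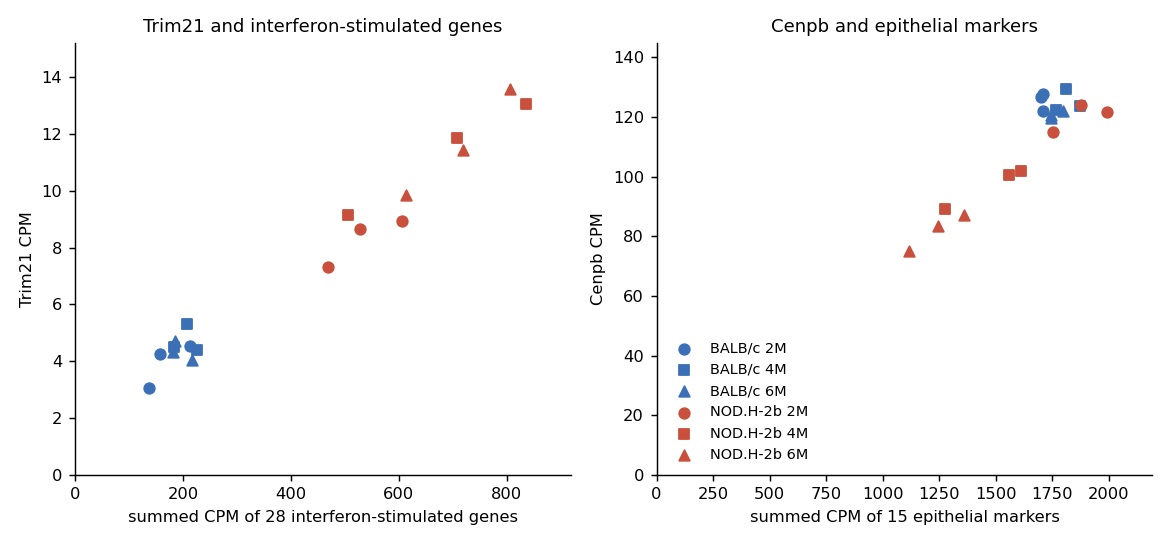
Each point is 1 LG. Left, Trim21 level against the summed level of 28 interferon-stimulated genes, and right, Cenpb level against the summed level of 15 epithelial markers, all in CPM on linear axes from 0, with BALB/c in blue, NOD.H-2b in red and circles, squares and triangles for 2M, 4M and 6M. The NOD.H-2b mice lie apart from BALB/c on the left, and on the right the NOD.H-2b mice of 4M and 6M lie at 1115 to 1613 CPM of epithelial markers and 75.0 to 102 CPM of Cenpb.

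Most other genes of the centromere list went the other way, but most of these had a low level. Of the 21 constitutive centromere and kinetochore genes tested, which include Cenpb, 16 were called higher and 2 lower in NOD.H-2b averaged over the ages, with a median log2 difference of 1.14. The 2 called lower were Cenpb and Hjurp, the gene of the chaperone that deposits CENP-A (-0.98, SE 0.0409). Cenpa, the histone variant that marks centromeres, was higher by 2.98 (SE 0.245), with a low level of 0.508 ± 0.271 CPM in the BALB/c mice of 6M beside 6.41 ± 0.930 CPM in the NOD.H-2b mice of 6M. Cenpc1, whose product is a second DNA-binding protein of the inner centromere, did not pass the test (0.04, SE 0.0421, FDR 0.432). Most of the genes called higher had a mean log2 CPM under 1, down to -2.36 for Cenpw, beside 6.80 for Cenpb. Among the more abundant genes, Hjurp (mean log2 CPM 5.42) was lower, and Cenpc1 (3.91) and Cenpx (3.41, difference -0.10) were not called. Cenpo (2.83) was higher by 0.21. Cenpw, Cenpx and Cenpo are named here for their level after their values were seen. Of 11 proliferation genes, whose products are made in dividing cells, 11 were called higher (median 2.60). Their part in the values of the centromere list was not tested.

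Sptan1 (ENSMUSG00000057738, chromosome 2, 29965560 to 30031451, plus strand) and Sptbn1 (ENSMUSG00000020315, chromosome 11, 30099395 to 30268175, minus strand) differed little between the strains. Sptbn1 stood at 251, 258 and 263 CPM in the BALB/c mice and 232, 236 and 238 CPM in the NOD.H-2b mice of 2M. At 4M it stood at 265, 265 and 271 CPM in the BALB/c mice and 239.9, 246 and 249.5 CPM in the NOD.H-2b mice. At 6M it stood at 265, 265 and 273 CPM in the BALB/c mice and 235, 236 and 242 CPM in the NOD.H-2b mice. NOD.H-2b mice were lower at every age without overlap, by log2 differences of -0.08, -0.12 and -0.14, none of which was called (FDR 0.145, 0.161 and 0.153). Averaged over the ages the difference was -0.14 (95% interval -0.20 to -0.08, FDR 0.000184), which is small but called. In that fit of all 18 mice each age was also called, with an FDR of 0.0446, 0.0417 and 0.00486.

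Sptan1 stood at 135, 137 and 144 CPM in the BALB/c mice and 142, 152 and 157 CPM in the NOD.H-2b mice of 2M, so the ranges overlapped. The log2 difference was 0.16 (SE 0.0534, FDR 0.0316). This call was lost without either of 2 BALB/c mice or 2 NOD.H-2b mice, with an FDR between 0.0815 and 0.129, and in the fit of all 18 mice (FDR 0.149). At 4M and 6M the strains overlapped and the differences were 0.06 (FDR 0.562) and 0.07 (FDR 0.448). Averaged over the ages the difference was 0.07 (95% interval -0.01 to 0.14, FDR 0.103), and with DESeq2 size factors in place of TMM it was 0.10 and was called (FDR 0.0186). Neither spectrin gene was called between ages in either strain.

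Since alpha and beta spectrin assemble in equal numbers, the counts of the pair were also set against each other within each mouse. The ratio of Sptan1 to Sptbn1 counts at 2M was 0.538 ± 0.0172 in the BALB/c mice and 0.638 ± 0.0379 in the NOD.H-2b mice (SD, n = 3). It was 0.559 ± 0.0470 and 0.630 ± 0.0233 at 4M and 0.551 ± 0.0319 and 0.636 ± 0.0198 at 6M. The lowest NOD.H-2b ratio was above the highest BALB/c ratio at each age, as Sptbn1 alone also did not overlap. At 4M the gap was very narrow, with a lowest NOD.H-2b ratio of 0.6065 beside a highest BALB/c ratio of 0.6046. These ratios are of counts not divided by length and were given no test.

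Other spectrin genes were lower in NOD.H-2b. Of 7 spectrin genes tested, 4 were called lower and none higher averaged over the ages. Among them, the differences were -1.21 (SE 0.139) for Sptb, the erythroid beta spectrin gene, and -1.87 (SE 0.1496) for Sptbn4. Sptbn5 did not pass the test (0.43, SE 0.245). A broader list held genes that link spectrin to membrane and actin and relatives or membrane genes not known to bind spectrin. Of its 13 genes tested, 4 were called higher and 6 lower, with Epb41l2 at 1.36 and Epb41l4a at -1.16 as the largest in each direction. Of 11 genes for proteases that can cut alpha-fodrin and for calpastatin, an inhibitor of calpains, 8 were called higher and 2 lower. The largest called lower among those with a mean log2 CPM of at least 1 was the caspase gene Casp6 (-1.33, SE 0.0411).

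Trove2 (ENSMUSG00000018199) lies on the minus strand of chromosome 1 at 143750790 to 143777068 and overlaps no other gene. Its level was 49.3, 51.1 and 51.9 CPM in the BALB/c mice and 45.0, 53.9 and 55.2 CPM in the NOD.H-2b mice of 2M, and 47.4, 54.3 and 56.4 CPM and 43.4, 47.1 and 51.9 CPM at 4M. At 6M it was 46.7, 56.05 and 62.0 CPM in the BALB/c mice and 48.0, 49.9 and 50.9 CPM in the NOD.H-2b mice. The strains overlapped at every age, and no comparison of strain or age was called. The averaged strain difference was -0.09 on the log2 scale (95% interval -0.21 to 0.02, FDR 0.1498). One BALB/c mouse of 6M, at 46.7 CPM, changed the calls: without it the strain difference was -0.23 (FDR 0.0407) and the BALB/c change from 2M to 6M was 0.21 (FDR 0.0190).

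Ssb (ENSMUSG00000068882) lies on the plus strand of chromosome 2 at 69861562 to 69871846. It shares 169 exon bases with Mettl5 on the opposite strand, which had 270 to 632 counts per mouse beside 2047 to 4528 for Ssb, and since the strand setting of the counting is not given, reads of the 2 genes in that overlap could not be told apart. At 2M its level was 44.6 to 45.6 CPM in the BALB/c mice and 44.5 to 47.6 CPM in the NOD.H-2b mice. The strains overlapped at every age and no strain difference was called, the averaged one being -0.05 (95% interval -0.11 to 0.02, FDR 0.197).

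In both strains Ssb had its lowest mean at 4M. In the BALB/c LGs it stood at 41.4, 41.5 and 43.3 CPM at 4M and 48.6, 54.2 and 54.3 CPM at 6M. In the NOD.H-2b LGs it stood at 40.1, 41.0 and 41.8 CPM at 4M and 47.1, 48.4 and 49.2 CPM at 6M. The 4M mice were lower than every mouse of 2M and 6M in both strains. From 2M to 4M, groups that do not overlap were found for 32.1% of all genes in BALB/c, beside 37.9% in NOD.H-2b, and from 4M to 6M for 22% and 21.5%. The log2 difference from 4M to 6M was 0.30 in BALB/c mice (SE 0.0614, FDR 0.0689) and 0.25 in NOD.H-2b mice (SE 0.0753, FDR 0.321), and neither was called, in comparisons where 0.307% and 0.00555% of all genes were. In the fit of all 18 mice both were called, with an FDR of 0.0149 and 0.0267. From 2M to 6M the BALB/c difference was 0.21 (SE 0.0574, FDR 0.0610), and it was called in that fit (FDR 0.0361). No batch is given for the ages, so age and any batch that went with it cannot be told apart.

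Genes for partners of Ro60 and La were also compared. Of 11 genes for partners of Ro60, La and Y RNAs, 1 was called higher and 5 lower averaged over the ages, with a median of -0.10 beside -0.02 over all genes. Pnpt1, a mitochondrial exoribonuclease gene, was the one called higher (0.28, SE 0.0636), and Xpo5, which encodes a nuclear export receptor of small RNAs, was the largest called lower (-0.25, SE 0.0383). The mouse Y RNA genes Rny1 (0.36, FDR 0.0519) and Rny3 (0.11, FDR 0.546), named here for their role after their values were seen, did not pass the test. Of 6 La-related genes, which share the La motif with Ssb, 2 were called higher and 3 lower, with Larp4b at 0.53 (SE 0.0349) and Larp1b at -0.44 (SE 0.0433). Of 11 RNA polymerase III subunit genes, 2 were called higher and 4 lower, with Polr3g at -0.34.

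**Figure D4:**
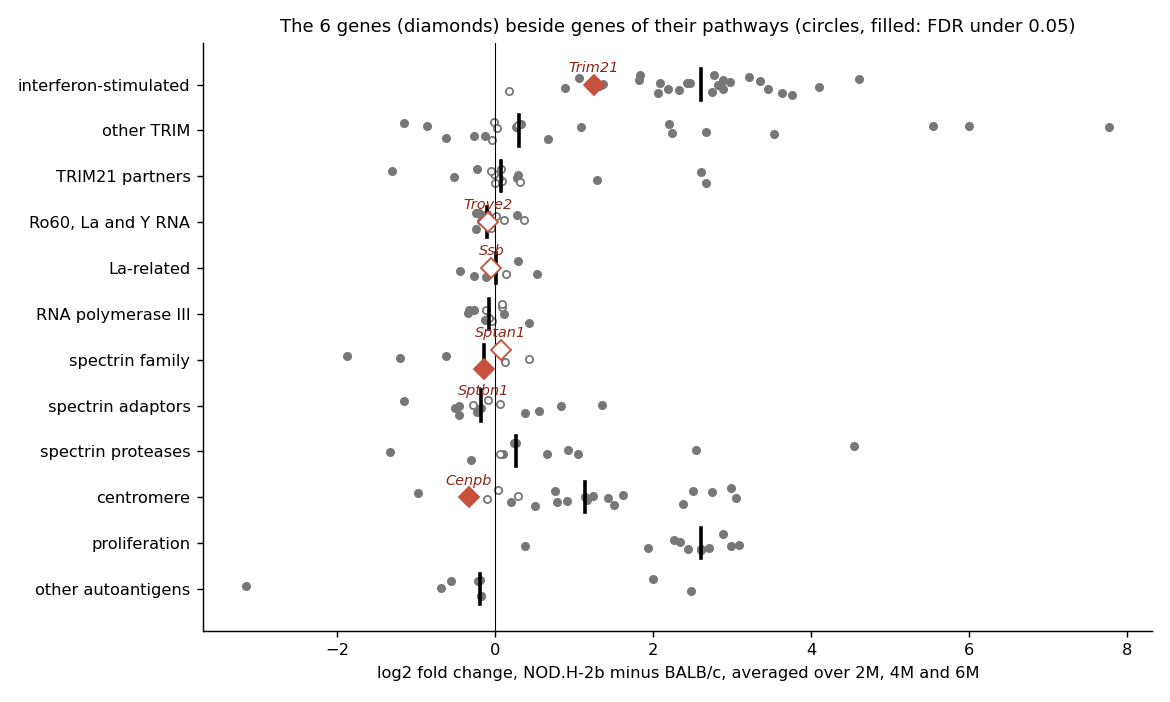
Log2 strain difference (NOD.H-2b minus BALB/c, averaged over the ages, fit of 18 mice) of the 6 genes (diamonds) in the row of their pathway and of the other genes of 12 lists (circles). Filled symbols have an FDR under 0.05, and black bars are the medians of all tested genes of a list. Trim21 lies at 1.25 and the interferon-stimulated median at 2.60, and Cenpb lies at -0.33 and the centromere median at 1.14.

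Of 11 genes for other reported SS autoantigens, 9 were tested, of which 2 were called higher and 7 lower averaged over the ages, where 65.5% of all genes were called. The list holds 3 genes that are also acinar markers (Car6, Obp1a and Aqp5), all called lower. Among the genes with a mean log2 CPM of at least 1, the largest differences were those of Car6, which encodes a secreted carbonic anhydrase of lacrimal and salivary glands (-3.15, SE 0.236), and Ifi204, an interferon-inducible DNA sensor gene (2.00, SE 0.172).

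Per kb of merged exons, the 6 genes spanned a wide range of levels in the LG. In BALB/c at 2M the level was 25.7 ± 0.609 CPM per kb for Cenpb, 20.9 ± 0.234 for Ssb, 14.7 ± 0.351 for Sptbn1, 10.4 ± 0.341 for Sptan1, 5.32 ± 0.139 for Trove2 and 1.07 ± 0.211 for Trim21 (SD, n = 3). Neighbours in this order did not overlap, and the order was the same in NOD.H-2b at 2M and in BALB/c at 4M. Cenpb and Ssb overlapped in NOD.H-2b at 4M (19.9 and 19.0) and in BALB/c at 6M (24.7 and 24.2). In NOD.H-2b at 6M, Ssb (22.3 ± 0.486) stood above Cenpb (16.8 ± 1.29) without overlap. Trim21 was the lowest and Trove2 the second lowest in all 6 groups, with Trim21 at 3.13 ± 0.503 beside 5.20 ± 0.157 for Trove2 in NOD.H-2b at 6M. With the longest transcript as the length, Sptbn1 moved to the top of the order in all 6 groups (25.9 to 29.4 CPM per kb), so the order of the upper 4 genes depends on the length used.

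The genes whose level over the 18 mice was most like that of each autoantigen gene were taken from 7925 genes with a mean log2 CPM of at least 3. These correlations are of log2 CPM and describe points that share strain and age. Trim21 was closest to Ly6e (r = 0.989), Tgfbi (0.988) and Ly6a (0.987), and the r of Ly6e was 0.893 over the 9 BALB/c mice and 0.954 over the 9 NOD.H-2b mice. Ly6e and Ly6a encode membrane proteins known to be induced by interferon, and Tgfbi encodes an extracellular matrix protein. Cenpb was closest to Spint2 (0.987), Asl (0.986) and Wipi2 (0.986). Spint2, an epithelial protease inhibitor gene, is 1 of the 15 epithelial markers used above, and its r with Cenpb was 0.979 over the NOD.H-2b mice and 0.811 over the BALB/c mice.

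Sptbn1 was closest to Vcpkmt (0.969), Rell1 (0.957) and Xlr4c (0.956), each of which was lower in NOD.H-2b (log2 -0.74, -0.99 and -2.20), so these r values hold the gap between the strains. Among the genes closest to Ssb were Pcnp (0.867) and Serbp1 (0.853), an mRNA-binding protein gene. Trove2 was closest to Trim23 (0.829), Lrig2 (0.824) and Mtx3 (0.816), and Sptan1 to Imp4 (0.773), Igkv6-32 (0.725) and Rab3gap1 (0.724). Among the 6 genes themselves, the pair Trim21 and Cenpb had the strongest r (-0.82 over 18 mice, -0.78 over the NOD.H-2b mice and -0.29 over the BALB/c mice).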

How the data were processed

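Bulk RNA was measured in the LGs of 18 mice. The deposited values are raw counts for each Ensembl gene, for which the authors had reads trimmed with cutadapt, aligned to GRCm38 with STAR and counted with HTSeq. Tool versions, annotation release and strand setting are not given in the sources used here. A second deposited table of log2 normalized values was not used.

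Gene models were those of GENCODE M21. Counts were compared in R 4.3.3 with edgeR 4.0.16 (TMM, filterByExpr, robust quasi-likelihood test, Benjamini-Hochberg adjustment over all genes tested) on the 6 mice of each comparison. A fit of all 18 mice gave the averaged strain difference and its change with age. The SE was the size of the log2 fold change over the root of F, and CPM used TMM-scaled library sizes. Totals ranged from 49480781 to 103936830 counts per mouse. Code was tested on simulated data. DESeq2 1.42.0, other scalings and filters, a replicate block and leaving out each mouse were tried as alternatives. Replicate numbers did not pair the mice.

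Besides the 6 genes, those named were the 3 with the highest r for each, the largest called difference in each direction of each pathway list with a mean log2 CPM of at least 1, and the spectrin, La-related, Cenpa and Cenpc1 genes. Some genes that this rule names are not reported here. The 6 genes and the lists were chosen with earlier results of these data known. Each library is 1 mouse, so p-values measure the spread between mice.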

Additional observations from a re-analysis of the deposited data

Results flagged for a closer look

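The strain difference of Cenpb changed with age. Its log2 difference between NOD.H-2b and BALB/c was lower at 6M than at 2M by an interaction contrast of -0.50 (SE 0.0894, edgeR FDR 0.00241), from -0.02 at 2M to -0.53 at 6M. In the same test 16.1% of all genes were called.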

How the results depend on the processing

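The strain differences of Trim21 and those of Cenpb at 4M, at 6M and averaged, with its change from 2M to 6M, kept their direction and call under every alternative run. The number of the 6 genes called differed as follows. With no filter on low counts it was 1 for the strain difference at 2M, 1 for BALB/c 4M to 6M, 1 for BALB/c 2M to 6M and 2 for NOD.H-2b 2M to 4M. In 1 fit of all 18 mice it was 3 for the strain difference at 4M and 3 at 6M, 1 for BALB/c 4M to 6M, 1 for BALB/c 2M to 6M, 3 for NOD.H-2b 2M to 4M and 2 for NOD.H-2b 4M to 6M. The DESeq2 Wald test gave 1 for BALB/c 4M to 6M and 1 for strain by age 2M to 4M, and upper quartile factors gave 1 for BALB/c 2M to 6M. The averaged strain count was 4 with the DESeq2 Wald test, DESeq2 size factors and at least 10 counts in every sample, as Sptan1 was then called. With the replicate block it was 0 for NOD.H-2b 2M to 4M and 1 for NOD.H-2b 2M to 6M, and the block moved no other count of the 6 genes. Same-numbered mice did not deviate together (r from -0.36 to 0.41, with 9 of 27 pairs best with their own number), so the numbers do not pair the mice. Over all genes, the block left 186 higher and 122 lower calls of 2799 for NOD.H-2b 2M to 4M. Without single mice the counts ranged from 0 to 2 for BALB/c 2M to 6M, 0 to 2 for NOD.H-2b 2M to 4M, 1 to 2 for NOD.H-2b 2M to 6M, 1 to 2 for the strain difference at 2M, 2 to 3 at 6M, 3 to 4 averaged and 0 to 1 for strain by age 2M to 4M.

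Values that changed sign were small and uncalled, and the cause was not tested. With DESeq2 size factors, they were 0.0050 for Sptbn1 in NOD.H-2b 2M to 6M, -0.0093 for Sptbn1 in strain by age 2M to 4M and 0.021 for Sptan1 in strain by age 4M to 6M. With upper quartile factors, they were 0.0077 for Cenpb in BALB/c 2M to 4M, -0.042 for Sptbn1 in strain by age 2M to 4M and 0.014 for Sptan1 in strain by age 4M to 6M. With no filter on low counts, they were 0.00074 for Cenpb in BALB/c 2M to 4M, -0.018 for Sptbn1 in strain by age 2M to 4M and 0.017 for Sptan1 in strain by age 4M to 6M. With at least 10 counts in every sample, they were 0.0034 for Cenpb in BALB/c 2M to 4M, 0.029 for Sptan1 in NOD.H-2b 2M to 6M, 0.035 for Sptbn1 in NOD.H-2b 2M to 6M, 0.0042 for Ssb in averaged strain difference and 0.011 for Sptan1 in strain by age 4M to 6M. With the DESeq2 Wald test, they were 0.0049 for Sptbn1 in NOD.H-2b 2M to 6M, -0.0093 for Sptbn1 in strain by age 2M to 4M and 0.021 for Sptan1 in strain by age 4M to 6M. With the fit of all 18 mice, they were 0.0033 for Sptbn1 in BALB/c 4M to 6M, 0.0071 for Sptan1 in NOD.H-2b 2M to 6M and 0.013 for Sptbn1 in NOD.H-2b 2M to 6M. Without single mice, the log2 values ranged from -0.027 to 0.015 for Cenpb in BALB/c 2M to 4M, -0.080 to 0.028 for Sptan1 in BALB/c 4M to 6M, -0.024 to 0.068 for Sptan1 in NOD.H-2b 2M to 4M, -0.051 to 0.036 for Sptan1 in NOD.H-2b 2M to 6M, -0.048 to 0.00095 for Sptan1 in NOD.H-2b 4M to 6M, -0.0050 to 0.11 for Sptan1 in strain difference at 4M, -0.062 to 0.050 for Sptan1 in strain by age 4M to 6M, -0.021 to 0.0016 for Sptbn1 in BALB/c 4M to 6M, -0.014 to 0.011 for Sptbn1 in NOD.H-2b 2M to 6M, -0.072 to 0.018 for Sptbn1 in strain by age 2M to 4M, -0.020 to 0.24 for Trim21 in BALB/c 2M to 6M, -0.091 to 0.17 for Trim21 in NOD.H-2b 4M to 6M, -0.047 to 0.15 for Trove2 in BALB/c 4M to 6M, -0.14 to 0.0025 for Trove2 in NOD.H-2b 2M to 6M, -0.012 to 0.13 for Trove2 in strain difference at 2M and -0.092 to 0.12 for Trove2 in strain by age 4M to 6M.

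Scalings moved the median of all genes by at most 0.046 on the log2 scale, and the filter of at least 10 counts moved it by at most 0.051.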
